A study of Mus musculus with 4 samples.

Results

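The genes described here are 7 inhibitory receptor genes of T cells, Pdcd1, Lag3, Tigit, Havcr2, Btla, Cd160 and Cd200, chosen by symbol. All 7 were listed among the 31053 genes counted in single CD4 T cells of mouse lung. The study sorted live CD4+ cells from C57BL/6 lungs that had received TC1 cells by tail vein 3 weeks earlier and from lungs of age-matched normal C57BL/6 mice, and made 1 gene-expression library (10x Genomics 5′ chemistry) and 1 T-cell receptor library per tissue. TC1 is a C57BL/6 lung epithelial line transformed with papillomavirus oncogenes and activated Ras. How many mice went into each cell suspension is not given in the labels. With 1 library per tissue there was no replicate, so no difference between tumor and normal lung could be tested, and each interval below is an exact 95% interval for counting error only. Cells of 1 library, and cells of 1 clone, are not replicates of a condition.

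The tumor library held 7788 cell barcodes with a median of 4210 UMIs (unique molecular identifiers, each standing for 1 captured transcript), and the normal library 7745 with a median of 3949. After filters on quality and on surplus receptor chains, 7135 tumor and 7082 normal cells remained. The libraries shared 86 barcode sequences. Cells were split by whether they held a UMI of Foxp3, the lineage factor of regulatory T cells, and a UMI of Ccr7, the lymph-node homing receptor of naive and central memory T cells. The tumor library held 746 Foxp3+ Ccr7- cells, 401 Foxp3+ Ccr7+ cells, 1139 Foxp3- Ccr7- cells and 4849 Foxp3- Ccr7+ cells. The normal library held 31, 175, 682 and 6194 cells of these classes. Foxp3+ cells without Ccr7 made up 65.0% (62.2 to 67.8) of the tumor Foxp3+ cells and 15.0% (10.5 to 20.7) of the normal Foxp3+ cells. A single Foxp3 UMI placed 251 of the 1147 tumor Foxp3+ cells (21.9%) and 82 of the 206 normal ones (39.8%) in their class. The T-cell marker list had a UMI in 98.0% to 100% of the cells of every class.

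Inhibitory receptors restrain a T cell after antigen has been seen. The products of Pdcd1 (PD-1) and Btla carry tyrosine motifs that recruit phosphatases to the antigen receptor or its co-receptors, TIGIT competes with the activating receptor CD226 for the ligand CD155, LAG-3 binds MHC class II, and TIM-3, the product of Havcr2, binds galectin-9 and other ligands. CD160 and BTLA share the ligand HVEM, while CD200 is itself a ligand, for the receptor CD200R1 on myeloid and some lymphoid cells. Several of these genes are induced by antigen stimulation, stay on in exhausted T cells and are also used by effector regulatory T cells in tissues and tumors.

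The promoters of the receptors that the results turn on are shown because their genes moved together (Pdcd1, Tigit and Havcr2) or apart (Btla) across the cell classes. The sequences are the 250 bases before the annotated start, from RefSeq on GRCm38.p6, which held such an entry for 6 of the 7 genes. They are written 5′ to 3′ on the gene's strand, and capitals mark a match to 1 of the motifs listed after them. The windows are chr1:94052554-94052803 (minus strand) for Pdcd1, chr16:43664185-43664434 (minus strand) for Tigit, chr11:46454681-46454930 (plus strand) for Havcr2 and chr16:45224087-45224336 (plus strand) for Btla.
Pdcd1: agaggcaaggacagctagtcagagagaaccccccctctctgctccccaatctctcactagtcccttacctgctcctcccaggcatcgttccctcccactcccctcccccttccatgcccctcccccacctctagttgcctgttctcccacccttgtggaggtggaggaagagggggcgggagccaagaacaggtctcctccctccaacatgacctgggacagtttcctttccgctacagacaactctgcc
Tigit: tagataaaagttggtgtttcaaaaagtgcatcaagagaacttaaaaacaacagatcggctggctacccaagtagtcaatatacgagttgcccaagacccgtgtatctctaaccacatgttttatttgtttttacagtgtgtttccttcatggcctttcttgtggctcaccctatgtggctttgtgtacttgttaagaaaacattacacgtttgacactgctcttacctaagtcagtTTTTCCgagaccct
Havcr2: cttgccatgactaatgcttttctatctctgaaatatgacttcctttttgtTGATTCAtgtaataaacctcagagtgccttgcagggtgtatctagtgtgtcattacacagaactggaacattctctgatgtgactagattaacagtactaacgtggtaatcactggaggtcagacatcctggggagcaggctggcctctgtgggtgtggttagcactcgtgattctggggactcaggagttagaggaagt
Btla: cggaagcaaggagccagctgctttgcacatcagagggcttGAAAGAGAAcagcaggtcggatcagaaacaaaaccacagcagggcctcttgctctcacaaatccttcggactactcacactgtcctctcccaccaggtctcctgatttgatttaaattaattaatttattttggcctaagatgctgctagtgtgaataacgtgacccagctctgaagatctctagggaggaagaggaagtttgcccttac

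The search covered 5 motifs on both strands, as letters only. The Tigit window held the NFAT core GGAAAA on the opposite strand (printed as TTTTCC) 14 bases before the start, and 20.4% of the 32851 promoters of the table held that core. The Havcr2 window held an AP-1 motif (TGANTCA) 200 bases before the start, found in 6.75% of promoters. The Btla window held the interferon-response element GAAANNGAA 210 bases before the start, found in 7.13%. The Pdcd1 window held none of these, nor the forkhead motif TGTTTAC (3.17% of promoters) or the NR4A element AAGGTCA (4.08%), and had the highest GC content of the 4 at 60.4%. The windows of Cd160 (from 2 annotated starts) and Cd200 held no match either. The Tigit and Btla windows lie inside the annotated span of their own gene. A match of this kind is a description of letters, not a bound site.

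The 7 genes lie on 5 chromosomes (GRCm38.p6). Pdcd1 spans chr1:94038305-94052553, Lag3 chr6:124904359-124912434, Havcr2 chr11:46454931-46481255 and Cd160 chr3:96798763-96829351. Tigit (chr16:43626137-43665125), Btla (chr16:45223705-45252895) and Cd200 (chr16:45382111-45409060) share chromosome 16. Btla and Cd200 are 129215 bases apart and Tigit lies 1558579 bases from Btla, yet the 3 genes had different patterns over the cell classes.

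Pdcd1 (ENSMUSG00000026285), Tigit, Lag3 and Havcr2 had their highest level in the Foxp3+ Ccr7- cells of the tumor library. Levels are given as CPM, the UMIs of the gene per 1000000 UMIs of the class, and are read across classes for 1 gene at a time. Pdcd1 reached 645 CPM (619 to 671) in tumor Foxp3+ Ccr7- cells, 403 (378 to 429) in tumor Foxp3+ Ccr7+ cells, 171 (159 to 183) in tumor Foxp3- Ccr7- cells and 19.8 (18.0 to 21.8) in tumor Foxp3- Ccr7+ cells. In the normal library it was at 121 CPM (67.8 to 200) in Foxp3+ Ccr7- cells, from 15 UMIs in 6 of 31 cells, and at 59.3 (43.4 to 79.1), 35.7 (28.7 to 44.0) and 5.06 (4.21 to 6.02) in the other 3 classes in the same order. Every tumor class thus stood above the same normal class with no overlap of the intervals. In the order of the 8 levels, the neighbours tumor Foxp3- Ccr7- and normal Foxp3+ Ccr7- did not differ beyond counting error. A Pdcd1 UMI was seen in 69.6% of tumor Foxp3+ Ccr7- cells (median 4566.5 UMIs). The share was 3.82% in tumor Foxp3- Ccr7+ cells (median 4176 UMIs), the tumor class with the lowest level. The normal shares of these classes were 19.4% and 1.34%. How much of the signal in any class was RNA carried over from other cells was not tested, and no level or ratio is corrected for it.

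Tigit (ENSMUSG00000071552) followed the same order in the tumor library, at 1102 CPM (1068 to 1136) in Foxp3+ Ccr7- cells, 637 (606 to 670) in Foxp3+ Ccr7+ cells, 249 (235 to 264) in Foxp3- Ccr7- cells and 42.1 (39.4 to 44.9) in Foxp3- Ccr7+ cells. The normal library departed from it. There Tigit was at 549 CPM (427 to 696) in the 31 Foxp3+ Ccr7- cells, 79.9 (61.2 to 102) in Foxp3+ Ccr7+ cells, 151 (137 to 168) in Foxp3- Ccr7- cells and 31.5 (29.3 to 33.8) in Foxp3- Ccr7+ cells. Normal cells without Ccr7 therefore carried more Tigit than normal Foxp3+ cells with Ccr7, and the interval of normal Foxp3+ Ccr7- cells reached the level of tumor Foxp3+ Ccr7+ cells. A Tigit UMI was found in 89.9% of tumor and 58.1% of normal Foxp3+ Ccr7- cells, against 8.62% and 9.33% of the Foxp3- Ccr7+ cells.

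Lag3 (ENSMUSG00000030124) was at 83.8 CPM (74.8 to 93.7) in tumor Foxp3+ Ccr7- cells, 55.7 (46.7 to 65.8) in tumor Foxp3+ Ccr7+ cells, 12.0 (9.03 to 15.7) in tumor Foxp3- Ccr7- cells and 2.92 (2.23 to 3.74) in tumor Foxp3- Ccr7+ cells. No Lag3 UMI was seen in any of the 206 normal Foxp3+ cells. A count of 0 allows up to 24.2 CPM in the Ccr7- cells and 3.87 CPM in the Ccr7+ cells, taking 3 counts as the limit, so the Ccr7- limit still lies below the tumor interval. The normal Foxp3- classes were at 2.44 CPM (0.894 to 5.30, 6 UMIs) without Ccr7 and 1.46 (1.02 to 2.02, 36 UMIs) with it. Detection in tumor cells was 18.9% of Foxp3+ Ccr7- cells, against 0.907% of Foxp3- Ccr7+ cells.

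Havcr2 (ENSMUSG00000020399) had the largest share of its tumor UMIs in Foxp3+ Ccr7- cells of the 4 genes, 63.6%, against 52.2% for Pdcd1, 55.1% for Lag3 and 53.2% for Tigit. Its level was 48.7 CPM (41.8 to 56.3) in tumor Foxp3+ Ccr7- cells, 29.2 (22.9 to 36.8) in tumor Foxp3+ Ccr7+ cells, 4.45 (2.72 to 6.87) in tumor Foxp3- Ccr7- cells and 0.517 in tumor Foxp3- Ccr7+ cells. The whole normal library gave 7 Havcr2 UMIs, 1 of them in a Foxp3+ cell. Normal levels were therefore known only within wide limits, from 0.205 to 45.0 CPM in Foxp3+ Ccr7- cells.

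Btla (ENSMUSG00000052013) had another pattern. In the tumor library it was lowest in Foxp3+ Ccr7- cells at 17.0 CPM (13.1 to 21.8), then 21.9 (16.5 to 28.6) in Foxp3+ Ccr7+ cells, 34.9 (29.7 to 40.9) in Foxp3- Ccr7- cells and 35.0 (32.5 to 37.6) in Foxp3- Ccr7+ cells. In the normal library it was at 16.2 (1.96 to 58.4, from 2 UMIs), 33.5 (21.9 to 49.1), 18.7 (13.7 to 24.9) and 23.0 (21.1 to 24.9) CPM in the same classes. No neighbours in the order of its 8 levels differed beyond counting error. Foxp3- Ccr7+ cells, the tumor class where Pdcd1, Tigit, Lag3 and Havcr2 were lowest, held 73.1% of the tumor Btla UMIs and 68.0% of the tumor cells.

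Cd200 (ENSMUSG00000022661) ran in the tumor library from 12.7 CPM (11.2 to 14.3) in Foxp3- Ccr7+ cells and 13.8 (10.6 to 17.7) in Foxp3- Ccr7- cells to 22.4 (17.9 to 27.8) in Foxp3+ Ccr7- cells and 26.8 (20.7 to 34.1) in Foxp3+ Ccr7+ cells. The normal library gave 9.34 (8.18 to 10.6), 11.8 (7.89 to 16.9), 0 (limit 24.2) and 19.3 (10.8 to 31.9) CPM in these classes, with no neighbours in the order of all 8 levels apart beyond counting error. Cd160 (ENSMUSG00000038304) had few UMIs in Foxp3+ cells, with 6 UMIs (2.44 CPM) in 4 tumor Foxp3+ Ccr7+ cells, against 1.46 CPM in tumor Foxp3- Ccr7+ cells, and none in the other Foxp3+ classes, where the limit was 0.811 CPM for tumor Foxp3+ Ccr7- cells. In Foxp3- Ccr7- cells it was at 5.56 CPM (3.60 to 8.21) in the tumor library and 6.50 (3.71 to 10.6) in the normal library. Cd160 was the only receptor of the 7 with 0 UMIs in tumor Foxp3+ Ccr7- cells.

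**Figure D1:**
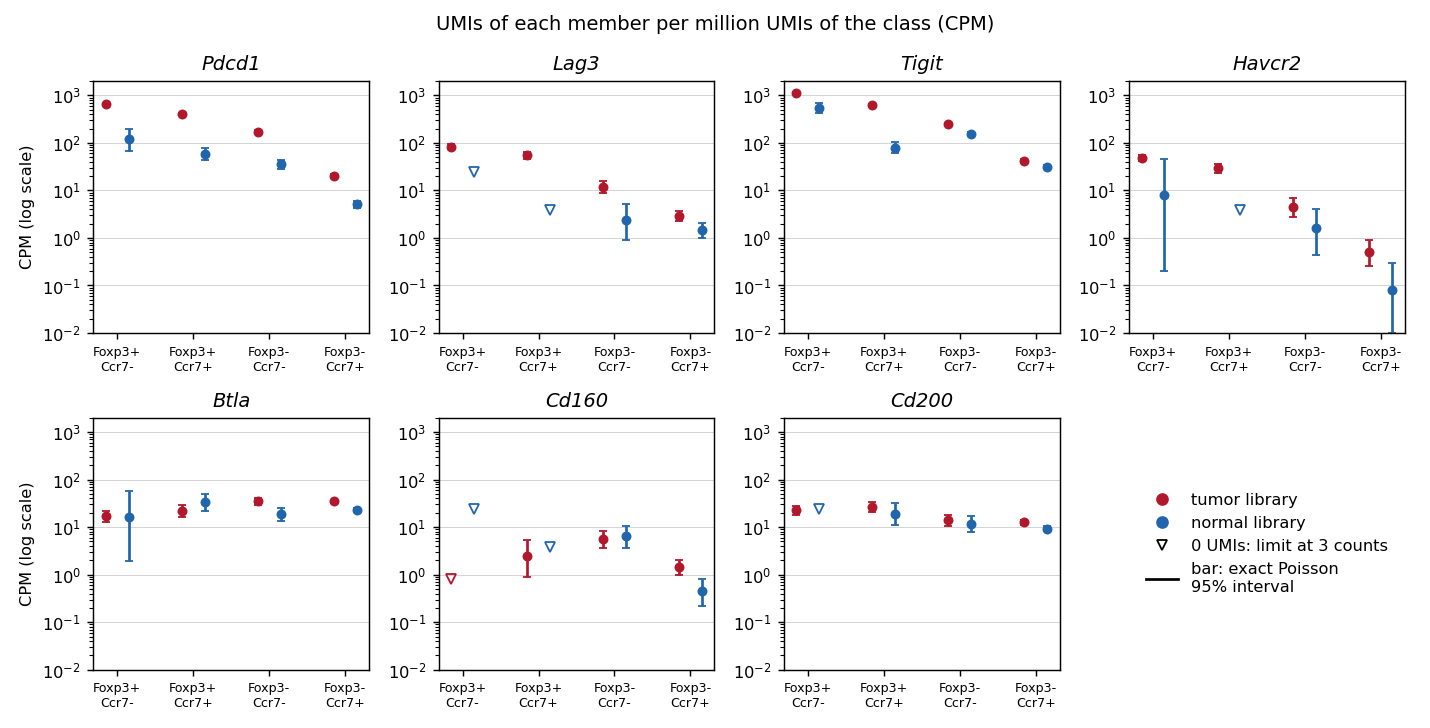
Level of each receptor gene (CPM, log axis) in the 4 Foxp3 and Ccr7 classes of the tumor (red) and normal (blue) library; bars are exact Poisson 95% intervals and open triangles mark the limit of 3 counts where no UMI was seen. Pdcd1, Lag3, Tigit and Havcr2 step down from Foxp3+ Ccr7- to Foxp3- Ccr7+ tumor cells, while Btla and Cd200 stay between 12.7 and 35.0 CPM in the tumor library.

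The first comparison set tumor against normal lung within each class. A gene was compared where both groups together held at least 20 UMIs and was called higher or lower past 1.5-fold, which describes these 2 libraries and is no test. Among Foxp3+ Ccr7- cells 4 of the 6 receptors compared were higher in the tumor library and none was lower, where 22.2% of all 8805 compared genes were higher and 16.6% lower. Because the minimum is over both groups, a gene can be compared through its tumor UMIs alone. Of the 6 receptors only Tigit, with 68 normal UMIs, met it in the normal cells. Lag3 (310 UMIs against 0) and Havcr2 (180 against 1) were thus let in by the group where they were higher. The count of 4 is no support beyond the single ratios. Pdcd1 was 5.32-fold higher (3.22 to 9.53), Tigit 2.01-fold (1.58 to 2.59) and Havcr2 6.03-fold (1.07 to 239, resting on 1 normal UMI). Lag3 was at least 3.46-fold higher. Btla had a ratio of 1.05 (0.280 to 8.90), and Cd200, with 83 UMIs against 0, could not be placed because the limit in 31 normal cells lies above the tumor level. The 15 normal Pdcd1 UMIs came from 6 cells. Without the 5 cells highest for the gene in each group, the log2 ratio of Pdcd1 went from 2.41 to 6.04 and that of Tigit from 1.00 to 1.87. Those 5 are a far larger share of the 31 normal cells than of the 746 tumor cells. Leaving them out by itself pushes the ratio up, so the rise says nothing about how firm the ratio is.

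Among Foxp3+ Ccr7+ cells 4 of 6 receptors were higher in the tumor library and 1 was lower, where 25.6% of 8433 genes were higher and 8.47% lower. Tigit was 7.98-fold higher (6.19 to 10.5) and Pdcd1 6.80-fold (5.06 to 9.35). Without the 5 highest cells of each group the log2 ratio of Pdcd1 went from 2.77 to 4.11 and that of Tigit from 3.00 to 3.84. Here too the 5 cells are a larger share of the 175 normal cells than of the 401 tumor cells, which pushes the ratio up. Lag3 was at least 14.4-fold and Havcr2 at least 7.57-fold higher, both with no UMI in the 175 normal cells. They met the UMI minimum through the tumor cells alone, with 137 and 72 UMIs. Btla was lower, at a ratio of 0.655 (0.403 to 1.09), whose interval holds 1, and its log2 ratio of -0.61 became -0.17 when 2 Foxp3 UMIs were required. Cd200 was past the threshold in neither direction at 1.39 (0.783 to 2.62). The median log2 ratio of all compared genes in this class was 0.17, and 0.05 over genes with at least 20 UMIs in each library. The receptors' ratios above are not adjusted for either.

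Among Foxp3- Ccr7- cells 5 of 7 receptors were higher in the tumor library, against 10.2% of 9540 genes higher and 7.22% lower. Pdcd1 was 4.78-fold higher (3.83 to 6.03), Lag3 4.93-fold (2.12 to 14.0), Btla 1.87-fold (1.34 to 2.66), Tigit 1.65-fold (1.46 to 1.85) and Havcr2 2.74-fold (0.918 to 11, an interval that holds 1). Cd160 (0.856) and Cd200 (1.17) were past the threshold in neither direction. Some Foxp3- cells carry a UMI of Il2ra or Ikzf2, genes that regulatory T cells express. Without those cells 3 of the 7 receptors stayed higher, Pdcd1 at a log2 ratio of 2.21, Lag3 at 1.83 and Btla at 0.91. Tigit went to 0.26 and Havcr2 to -1.76 from 1.45. Even with those cells Havcr2 had only 20 tumor and 4 normal UMIs in this class, so its value without them rests on few UMIs.

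Among Foxp3- Ccr7+ cells 4 of 6 receptors were higher, against 7.54% of 11377 genes higher and 3.5% lower. Pdcd1 was 3.92-fold higher (3.21 to 4.83), Cd160 3.28-fold (1.60 to 7.22), Lag3 2.0-fold (1.31 to 3.11) and Btla 1.52-fold (1.36 to 1.70). Tigit at 1.34 (1.21 to 1.47) and Cd200 at 1.36 (1.14 to 1.63) stayed under the threshold with intervals above 1, and Havcr2, with 11 UMIs against 2, was under the UMI minimum. Without the Foxp3- cells that had Il2ra or Ikzf2, the log2 ratio of Tigit went from 0.42 to 0.09 and that of Lag3 from 1.00 to 1.87. Pdcd1 was thus past 1.5-fold in all 4 classes, with UMIs in both libraries and an interval above 1 in each.

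**Figure D2:**
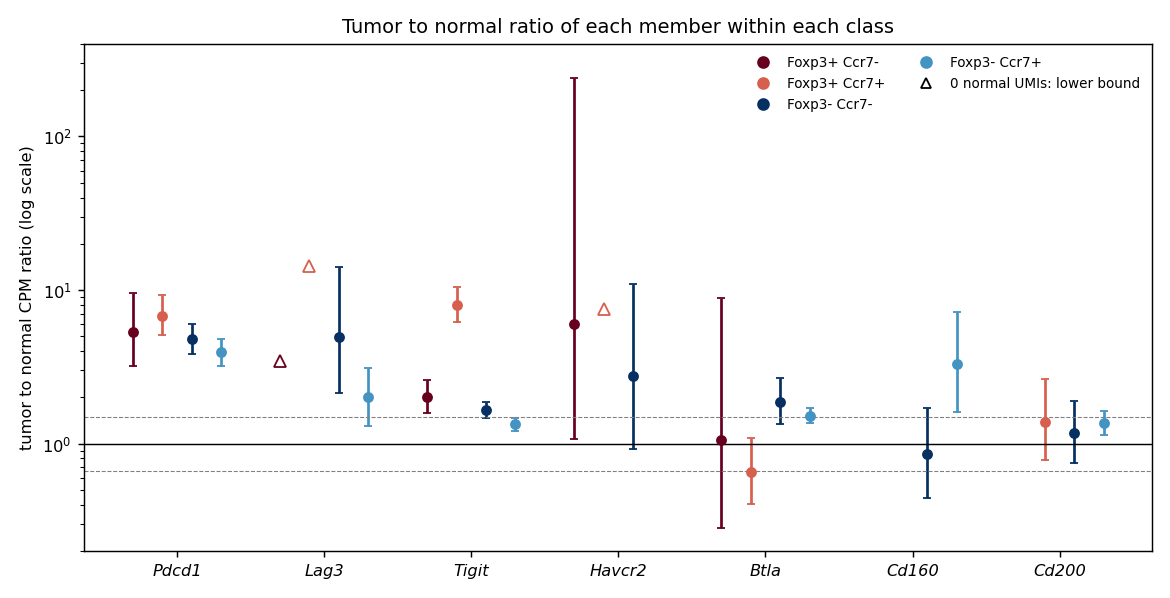
Tumor to normal ratio of CPM for each receptor gene in the 4 classes (log axis); bars are exact 95% intervals for counting error and triangles are lower bounds against 3 counts where the normal class had no UMI. Dashed lines mark 1.5-fold, and genes under 20 UMIs in a class are not drawn. Pdcd1 lies between 3.92 and 6.80 in all 4 classes, whereas Btla lies at 1.52 and 1.87 in the Foxp3- classes and at 0.655 in Foxp3+ Ccr7+ cells.

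With all Foxp3+ cells taken as 1 class the ratios were 8.09 for Pdcd1, 6.34 for Tigit, at least 21.8 for Lag3 and 36.8 (6.55 to 1460) for Havcr2. The tumor Foxp3+ cells also held the larger share without Ccr7 given above, and within either Ccr7 class the Pdcd1 ratio was smaller than in all Foxp3+ cells, while the Tigit ratio was larger in Foxp3+ Ccr7+ cells. Btla was lower in all Foxp3+ tumor cells at 0.611 (0.401 to 0.958) and higher in all Foxp3- tumor cells at 1.55 (1.40 to 1.72).

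The level of Pdcd1 and Tigit was read by the number of Foxp3 UMIs in a cell. In the normal library Pdcd1 was at 7.84, 15.2, 60.8 and 115 CPM in cells with 0, 1, 2 and at least 3 Foxp3 UMIs. In the tumor library it was at 46.2, 442, 585 and 568 CPM, so most of its increase lay between 0 and 1 UMI. Tigit went from 42.3 to 57.8, 138 and 220 CPM in the normal library and from 78.2 to 725, 907 and 966 in the tumor library. Normal cells with 1 Foxp3 UMI were thus nearer to Foxp3- cells than tumor cells with 1 UMI were.

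The second comparison set Foxp3+ against Foxp3- cells within a library, among cells without Ccr7. In the tumor library 5 of 7 receptors were higher in Foxp3+ cells and 2 were lower, where 22.6% of 9939 genes were higher and 11.7% lower. Havcr2 was 10.9-fold higher (6.87 to 18.3), Lag3 6.98-fold (5.21 to 9.50), Tigit 4.42-fold (4.14 to 4.73), Pdcd1 3.78-fold (3.48 to 4.10) and Cd200 1.63-fold (1.16 to 2.30). Btla was lower at a ratio of 0.488 (0.358 to 0.657), and Cd160 had 0 UMIs in Foxp3+ cells against 25 in Foxp3- cells, a ratio of at most 0.146 when 0 is taken as 3 counts. Among tumor cells with Ccr7, Btla was again lower in Foxp3+ cells at 0.627 (0.467 to 0.827), but Cd160 was at 1.67 (0.570 to 4.07). Pdcd1 was 20.3-fold higher there (18.1 to 22.8), Tigit 15.1-fold (13.9 to 16.5), Lag3 19.1-fold (14.0 to 26.2) and Havcr2 56.5-fold (29.8 to 118). In the normal library 2 of the 4 receptors with enough UMIs were higher, against 22% of 7799 genes higher and 19.5% lower: Pdcd1 3.39-fold (1.82 to 5.90) and Tigit 3.63-fold (2.76 to 4.71), beside tumor ratios of 3.78 and 4.42. Without the 5 highest cells of each normal group, 1 of these 2 calls was left. Those 5 are a larger share of the 31 Foxp3+ cells than of the 682 Foxp3- cells, which pushes the ratio down.

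The last split was by Ccr7. In tumor Foxp3- cells 5 of 7 receptors were higher without Ccr7, against 14.9% of 10863 genes. Havcr2 was 8.61-fold higher, Pdcd1 8.60-fold (7.63 to 9.71), Tigit 5.92-fold (5.42 to 6.47), Lag3 4.12-fold and Cd160 3.82-fold, while Btla (0.999) and Cd200 (1.09) were past the threshold in neither direction. In normal Foxp3- cells 4 of 6 were higher, against 17.9% of 10793 genes: Cd160 14.6-fold (6.37 to 34.8), Pdcd1 7.07-fold, Tigit 4.81-fold and Lag3 1.67-fold (0.576 to 4.01). Without the 5 highest cells of each group, 2 of these 4 calls were left. Those 5 are a larger share of the 682 cells without Ccr7 than of the 6194 with it, which pushes the ratio down.

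The Ccr7 split was shallow in tumor Foxp3+ cells. There 4 of 6 receptors were higher without Ccr7, against 9.39% of 9594 genes, with Tigit at 1.73 (1.63 to 1.83), Havcr2 at 1.66 (1.26 to 2.22), Pdcd1 at 1.60 (1.49 to 1.73) and Lag3 at 1.51 (1.23 to 1.86). None of the 4 passed 1.5-fold once Foxp3+ cells needed 2 Foxp3 UMIs. In normal Foxp3+ cells 2 of 3 receptors were higher without Ccr7, Tigit 6.88-fold (4.80 to 9.86) and Pdcd1 2.04-fold (1.06 to 3.73), and Btla, on 2 UMIs, was lower at 0.482 (0.0555 to 1.93), where 26% of 4972 genes were higher and 19.9% lower. Leaving out the 5 highest normal cells of each group left 1 receptor higher. Those 5 are a larger share of the 31 cells without Ccr7 than of the 175 with it, which pushes the ratio down.

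Receptors were then counted per cell. To compare cells at equal depth, each cell was thinned at random to 2417 UMIs, and shallower cells (393 tumor, 708 normal) were left out. After thinning 63.6% (59.9 to 67.2, 438 of 689) of tumor Foxp3+ Ccr7- cells showed at least 2 of the 7 genes, against 39.7% (34.9 to 44.8) of tumor Foxp3+ Ccr7+ cells, 13.9% (11.8 to 16.2) of tumor Foxp3- Ccr7- cells and 2.46% (2.04 to 2.95) of tumor Foxp3- Ccr7+ cells. The normal shares were 13.8% (3.89 to 31.7, 4 of 29), 3.66% (1.35 to 7.79, 6 of 164), 4.52% (2.95 to 6.60) and 0.782% (0.569 to 1.05). The interval of each tumor class lay above that of the same normal class. With all UMIs the tumor shares were 76.1%, 54.4%, 19.7% and 4.93%, and the normal ones 16.1%, 10.9%, 7.18% and 2.21%. At least 3 genes were seen in 19.4% of thinned tumor Foxp3+ Ccr7- cells and in none of the 29 normal ones, which allows a share of up to 10.3% with 3 counts as the limit (exact upper bound 11.9%).

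**Figure D3:**
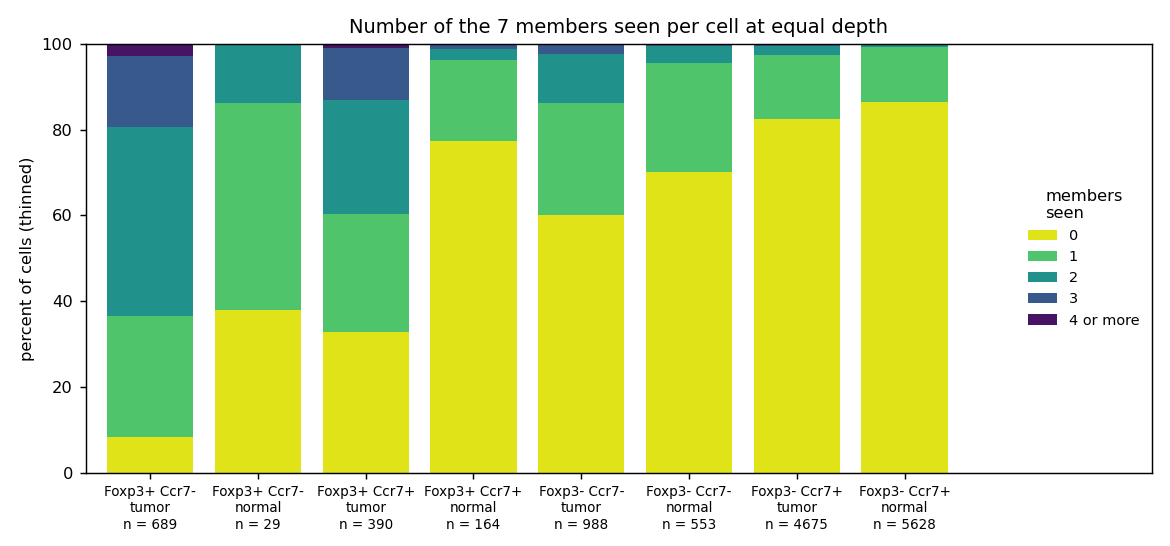
Percent of cells (0 to 100) with 0, 1, 2, 3 or at least 4 of the 7 receptor genes (members in the plot) seen after thinning to equal depth, for the 4 classes of each library with the number of cells under each bar. Cells with at least 2 genes make up 63.6% of tumor Foxp3+ Ccr7- cells and 13.8% of the 29 normal ones.

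The most frequent combination in tumor Foxp3+ Ccr7- cells, using all UMIs, was Pdcd1 with Tigit and no other receptor, in 265 of 746 cells (35.5%). Tigit alone followed with 115 cells (15.4%), then Pdcd1, Lag3 and Tigit with 73 (9.79%) and Pdcd1, Tigit and Havcr2 with 59 (7.91%). All 4 of these genes, without the others, were seen in 23 cells (3.08%), and none of the 7 in 37 (4.96%). Lag3 alone and Havcr2 alone were each seen in 3 cells, in a class where most cells held Tigit or Pdcd1. In tumor Foxp3+ Ccr7+ cells the most frequent state was none of the 7 (93 of 401, 23.2%), ahead of Pdcd1 with Tigit (77, 19.2%).

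Pairs of receptors were read within a class, again after thinning, as the share of cells with 1 gene among those with and without another. In tumor Foxp3- Ccr7- cells Tigit was seen in 63.8% (55.6 to 71.4) of cells with Pdcd1 and 19.9% (17.2 to 22.7) of cells without. In tumor Foxp3+ Ccr7+ cells the shares were 81.0% (74.0 to 86.8) and 37.9% (31.7 to 44.5), and in tumor Foxp3+ Ccr7- cells 87.4% (83.8 to 90.4) and 73.3% (67.5 to 78.5). The pair went together in each of these classes, by the narrowest margin in Foxp3+ Ccr7- cells, where Tigit was common with or without Pdcd1. Normal Foxp3- Ccr7- cells showed the same pair at 50% (30.6 to 69.4) against 19.6% (16.3 to 23.3).

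Lag3 was seen in 16.2% (12.8 to 20.0) of tumor Foxp3+ Ccr7- cells with Pdcd1 and 8.78% (5.65 to 12.9) of those without, with intervals that overlap slightly, and in 9.21% (5.13 to 15.0) against 1.20% (0.575 to 2.19) of tumor Foxp3- Ccr7- cells. Havcr2 went with Tigit: in tumor Foxp3+ Ccr7- cells Tigit was seen in 93.2% (84.7 to 97.7) of cells with Havcr2 and 80.7% (77.3 to 83.7) of cells without. Havcr2 was seen in 12.0% (6.12 to 20.4) of tumor Foxp3+ Ccr7- cells with Lag3 and 10.4% (8.06 to 13.1) of cells without. The shares were 8.82% (1.86 to 23.7) and 5.06% (3.02 to 7.87) in tumor Foxp3+ Ccr7+ cells and 4.17% (0.105 to 21.1, 1 of 24 cells) and 0.415% (0.113 to 1.06) in tumor Foxp3- Ccr7- cells, so the intervals overlapped in these 3 classes. Btla was seen in 5.26% (2.30 to 10.1) of tumor Foxp3- Ccr7- cells with Pdcd1 and 8.37% (6.59 to 10.5) without, overlapping intervals. In tumor Foxp3- Ccr7+ cells, which held most Btla UMIs, it was seen in 17.1% (10.8 to 25.2) of cells with Pdcd1 and 8.42% (7.63 to 9.27) without, and in 12.5% (8.71 to 17.2) with Tigit and 8.42% (7.62 to 9.28) without. The intervals for Pdcd1 did not overlap in that class, and those for Tigit overlapped slightly. Cd200 was seen in 5.69% (3.64 to 8.42) of tumor Foxp3- Ccr7+ cells with Btla and 2.67% (2.21 to 3.20) without. In tumor Foxp3- Ccr7- cells the same shares were 8.97% (3.68 to 17.6) and 2.64% (1.70 to 3.90), with intervals that overlap slightly.

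**Figure D4:**
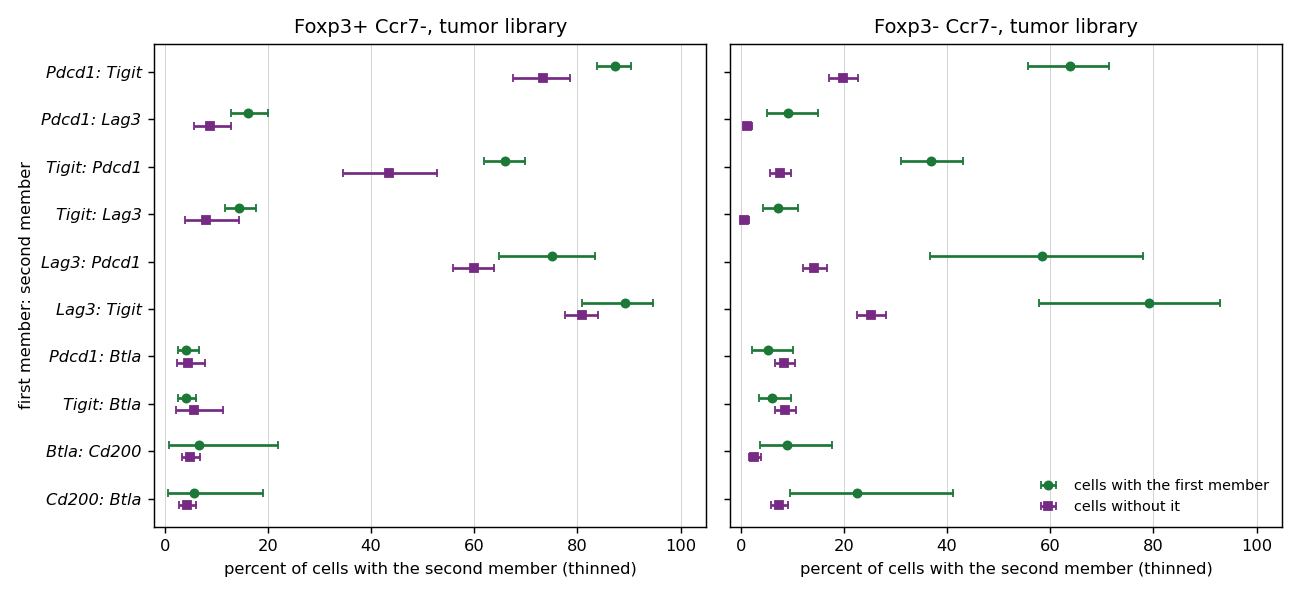
Percent of tumor cells with the second receptor gene among cells with (green circles) and without (purple squares) the first, thinned to equal depth, in Foxp3+ Ccr7- and Foxp3- Ccr7- cells; bars are exact binomial 95% intervals. Tigit is seen in 63.8% of Foxp3- Ccr7- cells with Pdcd1 and 19.9% of those without, while the intervals of Btla in cells with and without Pdcd1 or Tigit overlap.

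Receptor-gene number was set beside clonal expansion, read from the paired receptor chains of 5705 tumor and 5460 normal cells. A cell counted as expanded when its paired alpha and beta chains were found in at least 2 cells of the library. In tumor Foxp3+ Ccr7- cells 11.5% (4.35 to 23.4, 6 of 52) of cells with none of the 7 genes were expanded, against 28.7% (21.9 to 36.4) with 1, 45.7% (39.3 to 52.2) with 2 and 42.2% (33.1 to 51.8) with at least 3, all thinned. In tumor Foxp3+ Ccr7+ cells none of 99 cells without the 7 genes was expanded, against 13.9% (7.16 to 23.5), 30.9% (21.1 to 42.1) and 43.9% (28.5 to 60.3). In tumor Foxp3- Ccr7- cells the shares were 3.73% (2.23 to 5.84), 12.7% (8.52 to 17.9), 23.9% (15.6 to 33.9) and 36.8% (16.3 to 61.6, 7 of 19 cells). The share of expanded cells was thus larger with more receptor genes in these 3 classes, up to 2 genes in Foxp3+ Ccr7- cells. With both Ccr7 classes pooled, which mixes the 2 gradients, the Foxp3+ shares were 3.97%, 23.8%, 42.0% and 42.7%. In normal Foxp3- Ccr7- cells the share was 15.3% (11.5 to 19.8), 21.6% (14.5 to 30.1) and 19.0% (5.45 to 41.9) with 0, 1 and 2 genes, overlapping throughout. The 47 expanded cells with 0 genes there lay in 19 clones. The largest normal clone held 28 cells, 9 of them with Tigit, and its weight in these shares was not tested. In normal Foxp3- Ccr7+ cells the share was 0.387% (0.217 to 0.637) with 0 genes and 1.54% (0.707 to 2.91) with 1, without overlap. With 2 genes it was 2.86% (0.0723 to 14.9), from 1 of 35 cells. Cells of a clone share their origin, so these intervals are too narrow for a statement about clones.

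**Figure D5:**
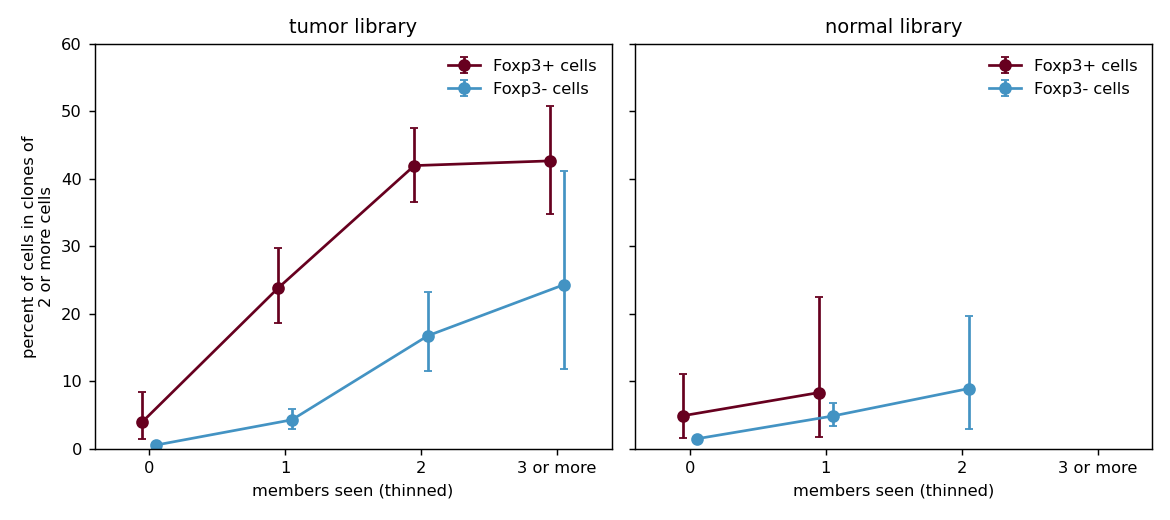
Percent of cells in clones of at least 2 cells by the number of the 7 receptor genes seen (thinned), for all Foxp3+ and all Foxp3- cells of each library, both Ccr7 classes pooled; bars are exact binomial 95% intervals, and points resting on few cells are not drawn. Tumor Foxp3+ cells go from 3.97% with no gene to 42.0% with 2, and tumor Foxp3- cells from 0.548% to 16.8%.

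Read gene by gene in tumor Foxp3+ Ccr7- cells, 45.1% (39.8 to 50.5) of cells with Pdcd1 and 24.7% (19.2 to 30.9) of cells without were expanded, and 40.4% (35.9 to 45.0) with Tigit against 23.1% (15.6 to 32.2) without. For Lag3 (39.0% against 36.8%) and Havcr2 (40.3% against 36.7%) the intervals overlapped. In tumor Foxp3- Ccr7- cells Tigit separated expanded cells by more, at 22.9% (17.5 to 29.1) against 4.08%, and Pdcd1 at 22.6% (15.6 to 31.0) against 6.74%. Btla went the other way there, at 3.23% (0.393 to 11.2) against 9.68%, on few cells. In the largest tumor clone, all 8 cells had Foxp3, 7 had Pdcd1, 7 Tigit, 3 Lag3 and 2 Havcr2. In the largest normal clone, of 28 cells, 9 had Tigit and none had Pdcd1.

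The share of Foxp3- Ccr7- tumor cells with a UMI of Il2ra or Ikzf2 was 6.23%, 18.3%, 34.5% and 70.8% with 0, 1, 2 and at least 3 receptor genes, and the share with the proliferation genes Mki67 or Top2a was 5.22%, 8.95%, 13.3% and 20.8%. Both moved with the number of receptor genes at like depth, and their part in the results above was not tested beyond the values without Il2ra or Ikzf2. In tumor Foxp3+ Ccr7- cells Mki67 or Top2a was seen in 19.0%, 20.2%, 17.4% and 12.7%, with no such increase.

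Other genes of the pathway came from lists of ligands, activating or competing partners, further inhibitory receptors, signalling proteins and transcription factors. In Foxp3+ Ccr7+ cells, tumor against normal, 5 of 8 ligand genes were higher and 1 lower, with a median log2 ratio of 0.81 against 0.17 over all genes, of which 25.6% were higher and 8.47% lower. Pdcd1lg2, a PD-1 ligand gene, was 3.02-fold higher (1.66 to 6.02), Cd200r1, the CD200 receptor, 3.78-fold, and Lgals9, which encodes galectin-9, 1.70-fold, while Pvr, encoding the TIGIT ligand CD155, was lower at 0.525. Cd274, the gene of the other PD-1 ligand, was past the threshold in neither direction at 1.32. Of the activating or competing partners 5 of 7 were higher and 1 lower: Icos went from 326 to 551 CPM (1.69-fold) and Cd226, which shares CD155 with TIGIT, was higher at 1.75 (0.912 to 3.69, an interval that holds 1). Cd96, another CD155 receptor, was lower at 0.378.

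Among the further inhibitory receptors 3 of 6 were higher and 1 lower in the same comparison, where 25.6% of all genes were higher and 8.47% lower. Ctla4 was at 1360 CPM in tumor and 517 in normal Foxp3+ Ccr7+ cells, 2.63-fold higher (2.37 to 2.93). Entpd1 was 5.55-fold higher. It is an ectoenzyme gene of the adenosine pathway and not a receptor, but was counted in this list throughout. Vsir, the VISTA gene, was lower at 0.508. Transcription factors were higher in 13 of 20 and lower in 4, with a median of 0.80. Bhlhe40 was 7.01-fold higher, Prdm1 3.11-fold, Maf 2.46-fold and Tox 1.69-fold, while Tcf7, a factor of naive and memory T cells, was lower at 0.495. Signalling genes were higher in 3 of 15 with a median of 0.16, near that of all genes. All 16 effector regulatory T-cell genes (median 2.37) and all 10 interferon-response genes (median 2.34) were higher as well, so genes of other kinds also differed between the libraries in this class.

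The same lists were read in Foxp3+ Ccr7- cells, where the normal library had 31 cells and 22.2% of all genes were higher and 16.6% lower. There 2 of 9 ligand genes were higher and 1 lower, 2 of 7 activating or competing partners were higher and 2 lower, and 3 of 6 further inhibitory receptors were higher and 1 lower. Icos went the opposite way from the Ccr7+ class, at 877 CPM in tumor and 1349 in normal cells, a ratio of 0.650 (0.556 to 0.764). Transcription factors were higher in 5 of 20 and lower in 3, with a median of 0.04 against 0 over all genes, and Bhlhe40 was 2.12-fold higher (1.62 to 2.82).

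In tumor cells without Ccr7, Foxp3+ against Foxp3- cells, 4 of 7 further inhibitory receptors were higher and 1 lower, with a median of 0.78 against 0.16 over all genes. The share of all genes was 22.6% higher and 11.7% lower. Klrg1 was 12.4-fold higher and Ctla4 5.00-fold (4.76 to 5.26). Of 7 activating or competing partners 4 were higher, among them Pvrig, itself an inhibitory receptor that competes with CD226 for a nectin ligand, at 13.3-fold (7.34 to 26.3). Cd96 was lower at 0.465, and Cd226, at 0.770, was past the threshold in neither direction. Signalling genes were higher in 2 of 16 and lower in 1: the adaptor genes Dok1 (3.03) and Dok2 (1.72) were higher, and the phosphatase genes Ptpn6 (0.815) and Ptpn11 (0.968) were past the threshold in neither direction. Tcf7 was at 18.4 CPM in Foxp3+ cells and 340 in Foxp3- cells.

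Tumor cells with at least 2 of the 7 genes were then set against cells with none, within a class and with all UMIs. The groups differ in depth, with medians of 4689 and 3220 UMIs in Foxp3+ Ccr7- cells (568 against 37 cells) and 4000 and 3654.5 in Foxp3- Ccr7- cells (224 against 594), and the receptors themselves are left out since they define the groups. In Foxp3- Ccr7- cells 26.1% of 8265 genes were higher in cells with at least 2 receptors and 11.1% lower, with a median log2 ratio of 0.20. Of the list of further inhibitory receptors 5 of 6 were higher, with Ctla4 at 6.26-fold (5.52 to 7.11) and the ectoenzyme gene Entpd1, counted in that list, at 13.2-fold. All 15 effector regulatory T-cell genes compared and all 8 proliferation genes were higher, and 10 of 11 naive genes were lower. Foxp3- cells with a UMI of Il2ra or Ikzf2 were kept in this comparison. After thinning they were 6.23% of the cells with 0 receptor genes, 34.5% with 2 and 70.8% with at least 3. The ratios therefore need not hold for cells outside the regulatory T-cell lineage, which was not tested. Transcription factors were higher in 11 of 20 and lower in 4, with Tox2 9.04-fold, Bhlhe40 5.28-fold and Maf 4.22-fold higher and Lef1 (131 against 609 CPM) and Tcf7 (0.375) lower.

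The genes with the largest ratios in that comparison had few UMIs in cells with none of the 7 genes, so their order is loose. Ifitm1, an interferon-induced membrane protein gene, was 53.2-fold higher (17.5 to 264, 75 against 3 UMIs). Rln3 had 59 against 0 UMIs (at least 41.8-fold). Rgs16, a regulator of G-protein signalling, was 34.2-fold higher (19.1 to 67.4). Ifi211 was 25.9-fold (11.3 to 72.8) and Cd83 21.3-fold (9.80 to 54.9) higher. Tnfrsf9, the activation-induced co-stimulatory receptor gene, was at 367 against 24.4 CPM (15.1-fold). Dapl1, a gene of naive T cells, was lowest at a ratio of 0.0238 (3 against 268 UMIs), followed by Gabrr2 (0.0394, from 1 UMI) and Igfbp4 (0.0535).

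In Foxp3+ Ccr7- cells, where 37 cells had none of the 7 genes, 21.8% of 8421 genes were higher and 13.8% lower in cells with at least 2. Ccl5, a chemokine gene of effector T cells, had 2082 UMIs against 0 (at least 31.4-fold), Nkg7, a gene of cytotoxic granules, was 14.9-fold higher (2.66 to 592, 330 UMIs against 1) and Ccr8, a receptor of tumor regulatory T cells, 3.44-fold (811 against 236 CPM). Icos was 1.93-fold (1.5 to 2.53) and Ctla4 1.75-fold (1.5 to 2.05) higher. Gzmb, a granzyme gene, was lower in cells with at least 2 receptor genes, at 600 against 1133 CPM, and so were Klf2 (0.290) and Lef1 (78.5 against 281 CPM). Transcription factors were higher in 9 of 20 and lower in 4.

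Over the 8 groups of cells (4 classes in 2 libraries), log2(CPM + 1) of Pdcd1 followed that of Tigit with a Pearson correlation of 0.94, Tigit that of Havcr2 with 0.94 and Lag3 that of Havcr2 with 0.80, while Tigit and Btla had -0.59. The 8 points share libraries and depth, so these values are a description. Of 9825 genes, those most like each receptor over the groups were Cish (0.986), Pcgf2 and Adam19 for Pdcd1, Txn1 (0.995), Ube2l3 and Nfkbiz for Tigit, Tdrd7 (0.996), Optn and Rab4b for Lag3, and Rbpj (0.992), Myo1c and Pcyt1a for Havcr2. Btla had lower best values, led by Tcof1 (0.938), and so had Cd160, led by Lcor (0.945).

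Markers of other cells were read in the same classes. In tumor Foxp3+ Ccr7- cells a UMI of the CD8 T-cell list was seen in 10.1% of cells, all of it Cd8b1 with Cd8a at 0, and of the epithelial list in 18.4% (Krt8 at 0), against 3.60% and 3.07% of tumor Foxp3- Ccr7- cells. The natural killer cell markers Ncr1, Klrb1c and Klre1 were at 0 in every Foxp3+ class. Within tumor Foxp3+ Ccr7- cells the epithelial list was seen in 20.1% of cells with Tigit (135 of 671) and 2.67% of cells without (2 of 75), and in 20.8% of cells with Pdcd1 and 12.8% without. In tumor Foxp3- Ccr7- cells the same shares were 6.80% and 1.40% for Tigit and 7.31% and 2.07% for Pdcd1. For Lag3 they were 21.3% and 17.7% in Foxp3+ Ccr7- cells, for Havcr2 22.0% and 17.6%, and for Cd200 25.4% and 17.6%, while Btla had 12% and 18.8%. The CD8 list was seen in 17.4% of Foxp3+ Ccr7- cells with Havcr2 and 8.47% without, against 10.6% and 8.81% for Pdcd1. These shares use all UMIs, with no thinning. The endothelial list, seen in 17.7% of tumor Foxp3+ Ccr7- cells, went the other way. All of it was Pecam1, with Cdh5 at 0. It was more frequent in cells with Ccr7, at 30.4% of tumor and 29.0% of normal Foxp3- Ccr7+ cells. In normal Foxp3+ Ccr7+ cells it was at 41.7%, so this list is a poor measure of RNA from endothelial cells here. Within tumor Foxp3+ Ccr7- cells it was seen in 15.2% of cells with Pdcd1 and 23.3% without. The same shares were 17.1% and 22.7% for Tigit and 12.9% and 18.7% for Havcr2. The B-cell list was rarer with Pdcd1, near equal for Tigit and more frequent with Havcr2. In that class the epithelial list was thus more frequent with Tigit, Pdcd1 and Havcr2, but not every list was. The part of these markers in the results was not tested.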

How the data were processed

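The deposited gene-expression files hold unnormalized counts of UMIs for each gene in each barcode, made by the authors with Cell Ranger 3.1.0, per the file headers, on mm10, per the submitters' processing notes. The deposited receptor files give UMI and read counts per assembled contig. From these, cells with at least 500 genes, under 10% mitochondrial UMIs, at most 2 productive alpha and at most 1 productive beta chain were kept (tumor: 120 left out for quality, 533 for receptor chains; normal: 61 and 602). No other doublet caller was run. UMIs were summed per library and class and divided by the class total (CPM). Intervals are exact (Poisson for CPM, Clopper-Pearson for shares, conditional binomial for ratios) at 95%, and cover counting error only. Sums of 0 are bounded at 3 counts. Genes most like a receptor were the 3 highest Pearson correlations of log2(CPM + 1) among genes with at least 100 UMIs. Genes named from the comparison of cells with several receptors and with none were the 10 highest and 5 lowest ratios with at least 50 UMIs in the higher group, together with genes of the lists. The 7 receptors and all lists were chosen with earlier results of these data known. No test between tissues was possible with 1 library per tissue. Gene positions and promoters were matched by symbol in RefSeq tables of GRCm38.p6. Work used Python 3.11.15, numpy 2.4.6, scipy 1.17.1, pandas 2.3.3 and matplotlib 3.10.9, and the counting steps were tested on simulated data.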

Additional observations from a re-analysis of the deposited data

Results flagged for a closer look

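With all Ccr7 classes pooled, Btla stood on opposite sides of 1 in Foxp3+ and Foxp3- cells when tumor was set against normal lung. Its ratio was 0.611 in all Foxp3+ cells and 1.55 in all Foxp3- cells. Within Ccr7+ cells the ratios were 0.655 in Foxp3+ cells and 1.52 in Foxp3- cells, and the log2 ratio of the Foxp3+ Ccr7+ cells went from -0.61 to -0.17 when 2 Foxp3 UMIs were required. Within Ccr7- cells they were 1.05 (0.280 to 8.90), with 2 normal UMIs, and 1.87, on the same side of 1. The difference was not tested, since each tissue had 1 library.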

How the results depend on the processing

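The results were recomputed under 17 alternatives. Those that changed only the threshold, the UMI minimum or the thinning were not applied to the 27 receptor ratios. Under the others, 297 of 320 ratio values were classed as the same, 22 moved and 1 changed direction. A value was classed as the same when it lay inside the counting interval of the ratio reported. Such an interval can be wide and hold 1, as for Btla in Foxp3+ Ccr7- cells (0.280 to 8.90). A value classed as the same therefore need not be near the ratio reported or on its side of 1. A change of direction was looked for only in ratios past the threshold. The 1 change of direction was Havcr2 in Foxp3- Ccr7- cells, tumor against normal, whose log2 ratio was -1.76 without the cells that had Il2ra or Ikzf2. Even with those cells Havcr2 had only 20 tumor and 4 normal UMIs there, so that value rests on few UMIs. Without those cells the receptors higher in tumor Foxp3- Ccr7- cells went from 5 to 3, and the share of these cells with at least 2 receptor genes to 9.55%. A 2-fold threshold also left 3 receptors there, and left 0 of the 4 higher without Ccr7 in tumor Foxp3+ cells. Requiring 2 Foxp3 UMIs gave 0 of those 4 as well. Leaving out the 5 highest cells of each group left 1 of 2 receptors higher in normal Foxp3+ than Foxp3- cells without Ccr7. It left 1 of 2 higher without Ccr7 in normal Foxp3+ cells and 2 of 4 in normal Foxp3- cells, where a minimum of 50 UMIs also left 2. In each of these comparisons the group with the higher receptors was the smaller one. Leaving out 5 cells took a larger share of that group and by itself pushed the ratio down. The share of cells with at least 2 receptor genes depended on depth. Thinned to 1000 UMIs it was 33.5% in tumor and 3.33% in normal Foxp3+ Ccr7- cells, and 5.73% and 1.36% in the Foxp3- Ccr7- cells. With no thinning it was 76.1% in tumor Foxp3+ Ccr7- cells and 19.7% and 7.18% in tumor and normal Foxp3- Ccr7- cells. The cause of the other changes was not tested. No paired analysis was possible because each tissue had 1 library, and for the same reason no library could be left out. The 31 normal Foxp3+ Ccr7- cells limit every ratio that uses them.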
